A study of Mus musculus with 20 samples.

Results

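The respiratory chain genes described here are 101 genes of 34933 named genes in the liver RNA-seq tables: all 13 mitochondrially encoded genes listed there, whose names start with mt-, and 88 of 98 nuclear genes whose names start with Nduf, Uqcr, Cox4 to Cox8 or Atp5 or are Sdha, Sdhb, Sdhc or Sdhd. Names ending in -ps, which mark pseudogenes, were dropped (14 entries), and a gene was kept when it had 10 or more counts in 5 or more libraries. Ndufb4c, kept by this rule with 801 to 4502 counts, is nevertheless annotated as a processed pseudogene. The 10 nuclear genes under that minimum were Cox4i2, Cox6a2, Cox6b2, Cox6c2, Cox7b2, Cox8b, Cox8c, Ndufa11b, Ndufb11b and Ndufs6b. The 88 were taken as 47 genes of complex I, 4 of complex II, 8 of complex III, 12 of complex IV and 17 of complex V by their names, and 8 of the 47 are Ndufaf assembly factors, which are not part of the finished complex.

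The libraries came from livers of wild-type mice made obese by diet, in 4 groups of 5: Rosuvastatin+GGOH, Rosuvastatin, GGOH and vehicle. Rosuvastatin is a statin, a drug that inhibits HMG-CoA reductase in the mevalonate pathway. Obesity and the wild-type genotype are shared by all 4 groups, vehicle included, and no lean mouse is among the samples. Dose, route, duration, strain, sex and age are not given in the labels. The labels number the livers and say no more on how the mice were housed or treated, so p-values measure the spread between these samples.

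The respiratory chain passes electrons from NADH and succinate through complexes I to IV to oxygen in the inner mitochondrial membrane, and complex V, the ATP synthase, uses the proton gradient this builds. Complexes I, III, IV and V are assembled from subunits of both genomes, while complex II is wholly nuclear. The mitochondrial genes are copied as long transcripts that are cut apart, mostly at the tRNAs between them, and the nuclear genes each have a promoter of their own. Liver is rich in mitochondria, which serve its fatty acid oxidation, ketogenesis and urea synthesis.

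Libraries held 8548120 to 18373913 estimated counts (median 15697885), with the lowest total in Rosuvastatin+GGOH mouse 3. All 6 hepatocyte markers examined were present in every group, with a sum of 46034 to 97714 CPM per library (CPM being counts scaled to a common library size). No pair of libraries of a group agreed within sampling noise. Because RNA came from whole liver, fewer cells of a type and less RNA per cell cannot be told apart.

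Positions and overlaps of the mitochondrial genes matter for reading their counts, since the table gives each gene a count of its own. On the GRCm38 mitochondrial genome mt-Atp8, which encodes a small membrane subunit of complex V, shares its last 43 bases with mt-Atp6, which encodes the subunit that lines the proton channel. The shared bases are in capitals in the following stretch of the plus strand, chrM:7902-7994, and reads inside them belong to both genes.
mt-Atp8 and mt-Atp6: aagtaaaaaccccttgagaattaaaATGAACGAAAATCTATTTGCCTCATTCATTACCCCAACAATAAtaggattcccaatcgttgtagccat
The end of mt-Atp6 meets mt-Co3 in the same way, with 1 shared base at position 8607, and the first codon of mt-Co3 is in capitals in chrM:8577-8637. This junction is shown because the genes on its 2 sides varied differently between mice, as described further on.
mt-Atp6 and mt-Co3: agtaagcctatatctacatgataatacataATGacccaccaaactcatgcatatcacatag

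A stretch of mouse chromosome 1 carries copies of mitochondrial sequence, and 1 of them, Gm29216, took many counts. Gm29216 (chr1:24615706-24616197, minus strand, annotated as an unprocessed pseudogene) matches the last 492 bases of mt-Co1 except at 6 positions, all near its start. Counting from 1 at the first base of mt-Co1, the differences are T1056A, C1057T, A1059G, A1060G, C1062A and A1066T, with the mitochondrial base first. The first 60 bases of the match are shown with the differing bases in capitals, for mt-Co1 at chrM:6381-6440 on the plus strand and for the copy at chr1:24616138-24616197 on the minus strand.
mt-Co1: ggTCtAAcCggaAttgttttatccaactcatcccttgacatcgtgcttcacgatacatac
Gm29216: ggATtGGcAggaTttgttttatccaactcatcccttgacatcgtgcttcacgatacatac
Gm29216 held 34405 to 172004 counts per library, which was 5.42 to 31.1 counts for each 100 of mt-Co1. Reads from the identical bases cannot be told apart by sequence, so the split between mt-Co1 and its copy is the one that the authors' quantification made. Gm28439, identical to the first 876 bases of mt-Nd4, had counts in 6 libraries only, 904, 4959 and 11835 in Rosuvastatin+GGOH mice 1 to 3, 5 in Rosuvastatin mouse 1, 793 in GGOH mouse 5 and 2674 in vehicle mouse 1. The identical copies of mt-Nd4l, mt-Atp6, mt-Co3 and mt-Co2 (Gm10222, Gm10925, Gm28437 and Gm28661) were listed at 0 in all 20 libraries. Gm28438, which differs from mt-Nd3 at 1 base, had 25 counts in 1 library and 0 in the others. Copies elsewhere that were less alike, among them Gm13339 of mt-Nd2 and Gm11407 and Gm4076 of mt-Nd5, had at most 33 counts in a library. The split between gene and copy is therefore uncertain, most of all for mt-Co1, mt-Co2, mt-Co3, mt-Atp6, mt-Nd3, mt-Nd4l and mt-Nd4, and to a lesser extent for mt-Nd2 and mt-Nd5.

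The 13 mitochondrial genes took a large and variable share of each library. Their share of counts was 17.1, 27.9, 29.2, 13.4 and 9.12% in Rosuvastatin+GGOH mice 1 to 5, 15.1, 16.4, 8.66, 13.4 and 16.2% in the Rosuvastatin mice, 8.06, 16.7, 13.6, 11.1 and 15.1% in the GGOH mice and 12.9, 12.9, 15.9, 14.6 and 11.9% in the vehicle mice. Rosuvastatin+GGOH mice 2 and 3 lay above every other mouse, mouse 5 of the same group was among the 3 lowest of all 20, and the 4 groups overlapped. Group means were 19.4 ± 8.89% with Rosuvastatin+GGOH, 13.9 ± 3.18% with Rosuvastatin, 12.9 ± 3.41% with GGOH and 13.6 ± 1.61% with vehicle (SD, n = 5 each). Counting error was small beside this, with a Wilson 95% interval of 29.18 to 29.25% in the shallowest library, and such intervals cover counting error only. Adding all the copies found, on chromosome 1 and elsewhere, gave means of 20% with Rosuvastatin+GGOH, 14.6% with Rosuvastatin, 13.5% with GGOH and 14.2% with vehicle.

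The 88 nuclear genes took a share about an order of magnitude smaller. It was 1.63, 1.59, 1.18, 1.63 and 1.89% in the Rosuvastatin+GGOH mice, 1.74, 1.59, 1.23, 1.92 and 1.83% in the Rosuvastatin mice, 2.15, 1.75, 1.67, 2.08 and 1.59% in the GGOH mice and 1.05, 1.95, 1.39, 1.80 and 1.94% in the vehicle mice. Vehicle mouse 1, Rosuvastatin+GGOH mouse 3 and Rosuvastatin mouse 3 were the lowest of the 20, and the groups overlapped. Means were 1.58 ± 0.255% with Rosuvastatin+GGOH, 1.66 ± 0.270% with Rosuvastatin, 1.85 ± 0.252% with GGOH and 1.63 ± 0.393% with vehicle (SD, n = 5 each). The mouse lowest for the nuclear set in the combination group was thus the highest for the mitochondrial set. Both shares are of totals that include the mitochondrial counts, so a high mitochondrial share lowers the nuclear share by construction. The order of the nuclear group means depends on this as well.

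**Figure D1:**
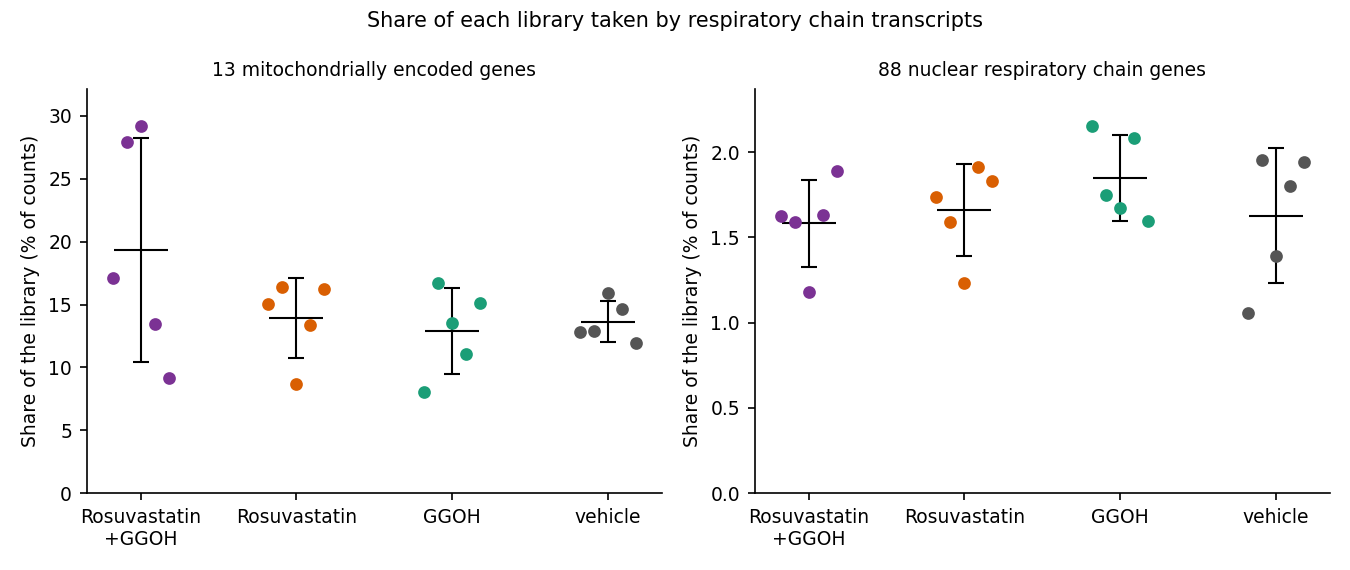
Share of each library's counts taken by the 13 mitochondrially encoded genes (left) and by the 88 nuclear genes (right), in percent; each point is 1 mouse, and the bars give the mean and SD of 5. Rosuvastatin+GGOH mice 2 and 3 reach 27.9 and 29.2% for the mitochondrial genes, while the nuclear share runs from 1.05 to 2.15% with overlapping groups.

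Per length, in TPM (transcript abundance scaled for length and library size), the mitochondrial messages were far above the nuclear ones. Mean levels over 20 libraries ran from 26.4 TPM for mt-Nd6 to 34616 TPM for mt-Atp8 with a median of 14628 TPM, and the nuclear members ran from 2.60 to 1668 TPM with a median of 227 TPM. A median gene among the 12789 tested had 4.12 TPM. The 3 highest mitochondrial genes, mt-Atp8, mt-Co3 and mt-Atp6, held 43.2% of the summed mitochondrial TPM. The group means of mt-Atp8 were 41732 ± 16267 TPM with Rosuvastatin+GGOH, 33276 ± 7548 TPM with Rosuvastatin, 30361 ± 8763 TPM with GGOH and 33093 ± 8691 TPM with vehicle (SD, n = 5 each).

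The cytochrome c oxidase core subunits mt-Co1 and mt-Co2 averaged 23873 and 22569.5 TPM, and cytochrome b of complex III, mt-Cytb, averaged 14628 TPM. The membrane-arm subunits of complex I stood at 14979.6 TPM for mt-Nd3, 13338 TPM for mt-Nd2, 11418 TPM for mt-Nd1, 11212 TPM for mt-Nd4l, 9649 TPM for mt-Nd4 and 4418 TPM for mt-Nd5. In this order of 13 levels the gap between neighbours exceeded the SD of both over the 20 libraries only from mt-Co2 to mt-Nd3, from mt-Nd4 to mt-Nd5 and from mt-Nd5 to mt-Nd6. mt-Nd6, the 1 member on the opposite strand, was lowest by more than 2 orders of magnitude. The libraries were prepared from poly(A)-selected RNA, and in human cells ND6 is known as the mitochondrial message that lacks a poly(A) tail.

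Nuclear subunits were most abundant in complexes III, V and IV. The median of mean TPM was 662 for the 8 genes of complex III, 579 for the 17 of complex V, 560 for the 12 of complex IV, 189 for the 39 subunits of complex I and 136 for the 4 of complex II. The 39 include Ndufb4c, annotated as a processed pseudogene, which held 87.2% of the summed TPM of Ndufb4 and Ndufb4c. How reads were split between these entries was not tested. The 8 Ndufaf assembly factors had a median of 19.3 TPM, and the highest of them, Ndufaf2, had 38.2 TPM. The highest gene of each complex was Ndufa4 (1559 TPM, counted with complex I by its name and since found in complex IV), Sdhd (282 TPM, a membrane anchor of succinate dehydrogenase), Uqcrh (1119 TPM, the hinge protein of complex III), Cox6c (984 TPM) and Atp5md (1668 TPM, a small subunit of the ATP synthase membrane part).

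Core subunits of each complex were below its highest gene. In complex I, Ndufs1, the large iron-sulfur subunit, averaged 33.2 ± 8.47 TPM with Rosuvastatin+GGOH, 34.2 ± 8.44 TPM with Rosuvastatin, 41.3 ± 10.6 TPM with GGOH and 37.5 ± 9.20 TPM with vehicle (SD, n = 5 each). Ndufv1, which binds the flavin that takes electrons from NADH, averaged 51.1 ± 16.2 TPM with Rosuvastatin+GGOH, 54.7 ± 13.8 TPM with Rosuvastatin, 50.9 ± 8.45 TPM with GGOH and 52.4 ± 20.2 TPM with vehicle. In complex II the flavoprotein Sdha averaged 76.7 ± 20.4 TPM with Rosuvastatin+GGOH, 81.7 ± 26.9 TPM with Rosuvastatin, 74 ± 8.09 TPM with GGOH and 81.8 ± 38.5 TPM with vehicle, and the iron-sulfur subunit Sdhb averaged 155 ± 45.4 TPM with Rosuvastatin+GGOH, 161 ± 20.5 TPM with Rosuvastatin, 181 ± 39.6 TPM with GGOH and 156 ± 23.7 TPM with vehicle. No pair of group means of these 4 genes differed by more than the larger of its 2 SDs.

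Uqcrfs1, the Rieske iron-sulfur protein of complex III, averaged 129.9 ± 40.2 TPM with Rosuvastatin+GGOH, 135 ± 23.2 TPM with Rosuvastatin, 142 ± 11.7 TPM with GGOH and 115 ± 13.2 TPM with vehicle (SD, n = 5 each), and the core protein Uqcrc1 averaged 40.8 ± 8.33 TPM with Rosuvastatin+GGOH, 43.2 ± 13.3 TPM with Rosuvastatin, 37.3 ± 2.67 TPM with GGOH and 37.4 ± 18.9 TPM with vehicle. In complex IV, Cox4i1 averaged 930.2 ± 202 TPM with Rosuvastatin+GGOH, 990.0 ± 146 TPM with Rosuvastatin, 1036 ± 77.2 TPM with GGOH and 895 ± 209 TPM with vehicle, and Cox5a averaged 223 ± 81.8 TPM with Rosuvastatin+GGOH, 237 ± 55.9 TPM with Rosuvastatin, 259.6 ± 39.4 TPM with GGOH and 197 ± 30.8 TPM with vehicle. The catalytic head of complex V was represented by Atp5a1, with 112 ± 27.8 TPM with Rosuvastatin+GGOH, 129 ± 35.1 TPM with Rosuvastatin, 136 ± 27.1 TPM with GGOH and 125 ± 32.7 TPM with vehicle, and by Atp5b, with 528 ± 233 TPM with Rosuvastatin+GGOH, 611 ± 156 TPM with Rosuvastatin, 646 ± 168 TPM with GGOH and 547 ± 76.7 TPM with vehicle. Among these 6 genes the difference between means exceeded the larger SD only for Uqcrfs1 and Cox5a, both higher with GGOH than with vehicle, and neither was called (edgeR adjusted p = 1.000 and 1.000).

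Isoforms known from other tissues were nearly absent. Cox4i1 made up 99.99% of the summed TPM of Cox4i1 and Cox4i2, Cox6a1 made up 99.97% of its pair with the heart and muscle form Cox6a2, Cox6b1 made up 99.94% of its pair with the testis form Cox6b2, and Cox8a made up 99.89% of its pair with the heart and muscle form Cox8b. Ndufa4 made up 99.79% of its pair with Ndufa4l2, a gene known to respond to hypoxia. Cox7a1, the muscle form of its family, passed the count minimum with 7 to 61 counts and held 1.18% of the family's TPM, against 67.0% for Cox7a2 and 31.9% for Cox7a2l. Of 10 muscle markers 8 had counts, Myh4 and Tnnt3 were at 0 in all libraries, and their sum was 0.173 to 0.511 CPM with Rosuvastatin+GGOH, 0.118 to 0.812 CPM with Rosuvastatin, 0.183 to 0.609 CPM with GGOH and 0.0596 to 0.606 CPM with vehicle. Of 5 brown fat markers, Ucp1 and Dio2 were at 0 in all libraries. The other 3, Cidea, Ppargc1a and Elovl3, had counts, and the list summed to 61.6 to 200 CPM per library. Ppargc1a is also among the biogenesis regulators examined further on, so this sum cannot be read as a measure of brown fat. The part of such cells in the Cox7a1 counts was not tested.

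More than 1 gene was well expressed in the family of the ATP synthase c subunit, which forms the rotor ring and is made from 3 nuclear genes for the same mature protein. Atp5g3 gave 65.1 ± 2.07% of the family's TPM with Rosuvastatin+GGOH, 64.7 ± 0.745% with Rosuvastatin, 70.3 ± 1.73% with GGOH and 69.0 ± 3.31% with vehicle (SD, n = 5 each). Atp5g1 gave 29.4 ± 3.28% with Rosuvastatin+GGOH, 30.5 ± 1.42% with Rosuvastatin, 25.4 ± 2.2% with GGOH and 26.1 ± 3.31% with vehicle, and Atp5g2 gave the rest. The groups with the statin were thus lower for Atp5g3 and higher for Atp5g1 in mean share, a difference seen after inspection of the values and not tested as a share. For the single genes edgeR's quasi-likelihood test gave log2 fold changes for Rosuvastatin against vehicle of -0.15 ± 0.23 for Atp5g3 (adjusted p = 0.973) and 0.18 ± 0.21 for Atp5g1 (adjusted p = 0.973).

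Between mice the nuclear members moved together to a large extent, whatever the group. On the log2 CPM scale the median correlation was 0.80 over their 3828 pairs across 20 libraries, and 75 of 88 had r above 0.5 with the mean of the others. The mean deviation of the set was lowest in vehicle mouse 1 (-0.94), Rosuvastatin mouse 3 (-0.60), Rosuvastatin+GGOH mouse 3 (-0.57) and vehicle mouse 3 (-0.37), and highest in vehicle mouse 5 (0.56), GGOH mouse 1 (0.47) and vehicle mouse 2 (0.44). In vehicle mouse 1, 80 of the 88 genes were below their own mean over the libraries, and in vehicle mouse 5 only 6 were. On this scale the extremes in both directions therefore lay within the vehicle group. The library scaling has a part in this, because a larger TMM scaling factor lowers log2 CPM. The factor was 1.25 in vehicle mouse 1 and 0.76 in vehicle mouse 5. As a share of counts vehicle mouse 1 was also lowest (1.05%), but GGOH mice 1 and 4 were highest (2.15 and 2.08%). The SD of the set's mean log2 CPM was 0.28 with Rosuvastatin+GGOH, 0.31 with Rosuvastatin, 0.24 with GGOH and 0.64 with vehicle. These correlations are descriptions, and the genes share libraries, depth and scaling.

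Transcript length went with this shared movement. The nuclear members are short, with a median of 758 nucleotides against 2754 for all tested genes, and 49.4% of the 85 with a length were under 750 nucleotides against 3.63% of tested genes. The SD of log2 CPM over libraries had a median of 0.53 for the 42 members under 750 nucleotides and 0.37 for the 43 longer ones, and Spearman's rho between length and SD was -0.66 across genes, which are not independent replicates. All 42 short members had r of at least 0.62 with the mean of the others, whereas 30 of 43 long ones had r above 0.5. The 750 boundary, near the members' median, was chosen after the values were seen.

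Atp5e and Atp5a1, picked for a high and a low SD, show the contrast. It did not hold for every long member, since Ndufs4 (1698 nucleotides) had an SD of 0.562 and Cox7b (1001 nucleotides) one of 0.689. The short Atp5e, the epsilon subunit of the ATP synthase head, had an SD of 0.766, and it stood at 7.86, 8.14, 6.71, 7.59 and 8.13 log2 CPM in the 5 Rosuvastatin+GGOH mice, 7.82, 7.96, 6.68, 8.72 and 7.85 log2 CPM in the Rosuvastatin mice, 8.88, 7.58, 7.72, 8.16 and 7.61 log2 CPM in the GGOH mice and 5.93, 8.81, 7.13, 8.48 and 8.65 log2 CPM in the vehicle mice. Vehicle mouse 1 was the lowest of all, and every group overlapped every other. The long Atp5a1, the alpha subunit of the same head, had the lowest SD of all nuclear members at 0.158, with 7.78, 7.70, 7.91, 8.0 and 8.04 log2 CPM in the 5 Rosuvastatin+GGOH mice, 7.88, 7.69, 8.06, 7.93 and 7.94 log2 CPM in the Rosuvastatin mice, 8.11, 7.94, 8.09, 8.35 and 7.89 log2 CPM in the GGOH mice and 8.13, 8.13, 7.93, 7.82 and 7.96 log2 CPM in the vehicle mice. Its 20 values lay within a narrow band in which vehicle mouse 1 was not the lowest. Uqcrc1, Sdha, Ndufa10, Ndufs1 and Ndufa4l2 were the 5 members with a correlation below 0 with the rest of the set. Ndufa4l2 had only 7 to 49 counts per library.

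Short genes outside the respiratory chain moved in the same libraries. The median deviation of 396 other tested genes under 750 nucleotides was -0.64 in Rosuvastatin+GGOH mouse 3, -0.53 in Rosuvastatin mouse 3, -0.99 in vehicle mouse 1 and 0.57 in vehicle mouse 5. The 42 short respiratory chain members had mean deviations of -0.72 in Rosuvastatin+GGOH mouse 3, -0.79 in Rosuvastatin mouse 3, -1.22 in vehicle mouse 1 and 0.70 in vehicle mouse 5. The 43 long members went the same way by less, with -0.40, -0.38, -0.63 and 0.39 in those 4 libraries as just listed. The median over 11742 other long genes stayed between -0.05 and 0.09. These are most of the tested genes, and library scaling holds the bulk of genes near 0. Their median therefore cannot show whether long genes moved. Lists of longer genes described further on were compared with the nuclear mean as well. For assembly factors (median 2007 nucleotides) and mitochondrial ribosomal proteins (1251.5 nucleotides), r was 0.98 for both. It was 0.86 for transcription and upkeep, 0.67 for carriers, 0.16 for the TCA cycle, -0.20 for the unfolded protein response and -0.39 for regulators. In vehicle mouse 1 the assembly factors and ribosomal proteins had mean deviations of -0.53 and -0.66. How much of the nuclear set's variation belongs to transcript length was not tested.

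**Figure D2:**
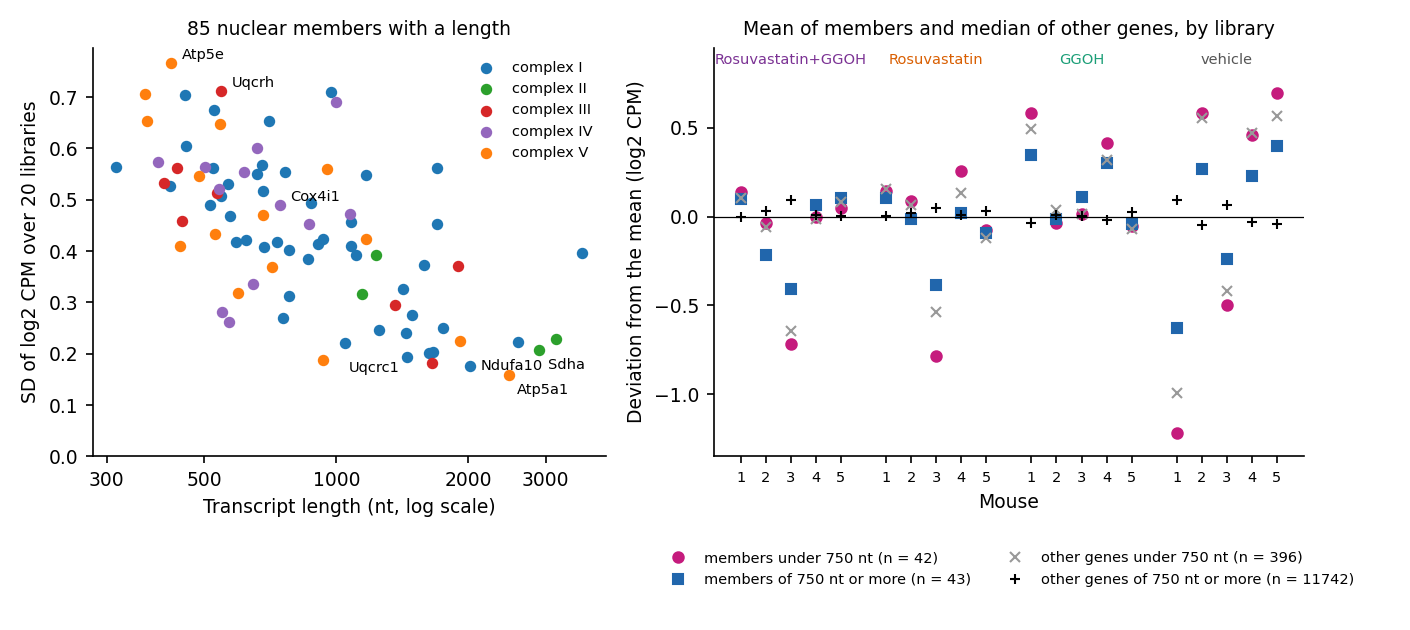
Left, SD of log2 CPM over 20 libraries against transcript length in nucleotides (log axis) for the 85 nuclear members with a length, coloured by complex. Right, mean deviation of short and long members and median deviation of other short and long genes in each library; members and other genes under 750 nucleotides both drop furthest in vehicle mouse 1, to -1.22 and -0.99.

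The 3 promoters below are printed as examples that hold the consensus of NRF1, a transcription factor known to bind promoters of respiratory chain genes. Whether such motifs go with the shared movement of the nuclear members was not tested. RefSeq promoters (GRCm38.p6) were matched for 73 of the 88 nuclear members, and the 250 bases before the start were searched on both strands. The full NRF1 consensus, GCGC followed by AT and then GCGC, was in 5 of 73 (6.85%), against 1.87% of 9946 tested genes with a promoter and 0.877% of 27025 genes in the table. The looser form, GCGC, any 2 bases and GCGC, which includes the full one, was in 16 of 73 (21.9%), against 11.7% and 5.64%. CCGGAAGT, a site of the ETS factor GABPA, was in 3 (4.11%), against 6.5% and 3.23%, and AAGATGGCG, a site of YY1, was in 1 (1.37%), against 1.33% of tested genes. Capitals mark any of these motifs.
Atp5k (chr5:108434400-108434649, minus strand): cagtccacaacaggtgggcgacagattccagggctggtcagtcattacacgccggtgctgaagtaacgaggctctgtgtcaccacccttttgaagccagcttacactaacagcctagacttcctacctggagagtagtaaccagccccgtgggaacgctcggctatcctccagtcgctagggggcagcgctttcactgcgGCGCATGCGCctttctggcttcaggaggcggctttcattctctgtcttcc
Cox6a1 (chr5:115348959-115349208, minus strand): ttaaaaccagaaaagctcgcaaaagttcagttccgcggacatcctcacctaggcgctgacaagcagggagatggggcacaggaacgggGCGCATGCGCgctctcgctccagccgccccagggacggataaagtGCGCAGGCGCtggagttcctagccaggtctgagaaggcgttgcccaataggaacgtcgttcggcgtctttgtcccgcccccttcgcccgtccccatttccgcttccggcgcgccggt
Ndufaf4 (chr4:24897833-24898082, plus strand): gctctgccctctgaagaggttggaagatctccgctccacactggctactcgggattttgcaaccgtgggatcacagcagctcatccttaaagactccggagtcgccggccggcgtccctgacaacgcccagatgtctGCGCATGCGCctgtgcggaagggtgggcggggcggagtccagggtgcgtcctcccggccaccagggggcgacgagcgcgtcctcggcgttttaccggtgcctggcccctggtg
Of these 3 genes, Atp5k varied strongly between mice (SD of log2 CPM 0.654), Ndufaf4 less so (0.396) and Cox6a1 little (0.262). By length, the full motif was in 4 of 35 short members (11.4%) and 1 of 36 long ones (2.78%), the looser one in 7 (20%) and 9 (25%), the GABPA site in 3 (8.57%) and 0, and the YY1 site in 1 (2.86%) and 0. A match is a description of these letters and not evidence of binding.

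Of the mitochondrial genes, 10 rose and fell together between mice and the adjacent mt-Co3 and mt-Nd3 did so less. Among the 10 without mt-Co3, mt-Nd3 and mt-Nd6, correlations of log2 CPM over the 20 libraries were 0.91 to 1.00. mt-Nd5, a large membrane subunit of complex I, varied most of these and had 5471, 9751, 12909, 2627 and 1464 TPM in the 5 Rosuvastatin+GGOH mice, 4563, 4452, 2613, 3166 and 3927 TPM in the Rosuvastatin mice, 1530.2, 4739, 3232, 2689 and 4679 TPM in the GGOH mice and 4986, 3683, 5193, 3848 and 2844 TPM in the vehicle mice. Rosuvastatin+GGOH mice 2 and 3 were the highest and mouse 5 of that group was the lowest of all 20.

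mt-Co3 (chrM:8607-9390) and mt-Nd3 (chrM:9459-9806) lie side by side, and their correlation with each other was 0.84. With mt-Co1 it was 0.62 for mt-Co3 and 0.21 for mt-Nd3, and with the mean of the nuclear set it was 0.71 and 0.89, against -0.13 to 0.06 for the other 10. mt-Nd3 had 13194, 13512, 14874, 15929 and 15178 TPM in the 5 Rosuvastatin+GGOH mice, 14322, 14269.6, 11663, 12294 and 19182 TPM in the Rosuvastatin mice, 16029, 18521, 17613, 17744 and 13726 TPM in the GGOH mice and 10148, 15480.1, 13814, 16529 and 15571 TPM in the vehicle mice. Here Rosuvastatin+GGOH mice 2 and 3 were within the range of the other mice, and vehicle mouse 1 was the lowest of all. The genes on either side in the genome, mt-Atp6 and mt-Nd4l, went with the larger group, although mt-Atp6 shares a base with mt-Co3 in the junction printed above. The copy Gm29216 had a correlation of 0.39 with mt-Co1, 0.88 with mt-Co3 and 0.77 with the nuclear mean.

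**Figure D3:**
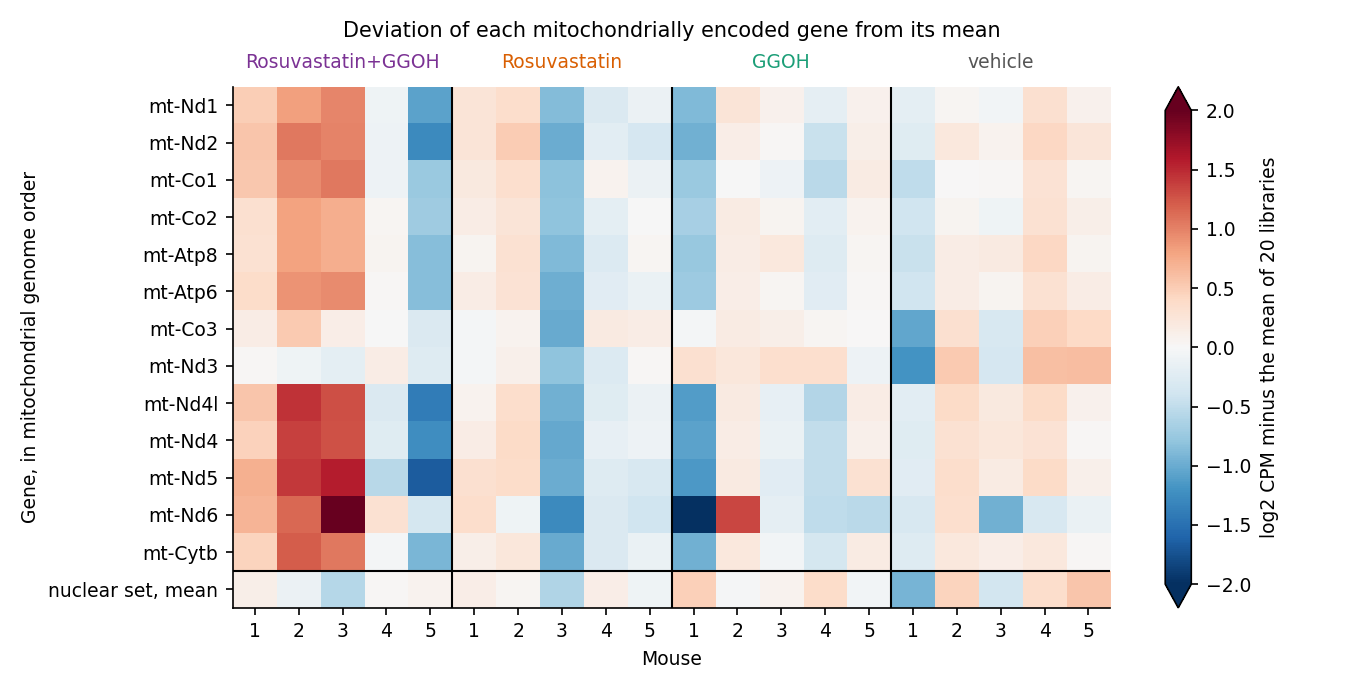
Deviation of log2 CPM from the 20-library mean for each of the 13 mitochondrially encoded genes in genome order, with the mean of the 88 nuclear genes in the bottom row; columns are mice 1 to 5 of each group and colours are capped at 2. In Rosuvastatin+GGOH mouse 3 mt-Nd5 is 1.57 above its mean, while mt-Co3 and mt-Nd3 are at 0.13 and -0.19.

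mt-Nd6 had the highest SD of log2 CPM of the 13 (1.09), and its correlation with the mean of the other mitochondrial genes was 0.742, against 0.619 for mt-Co3, 0.253 for mt-Nd3 and 0.948 to 0.993 for the other 10. It had 170, 278, 604, 134 and 106 counts in the 5 Rosuvastatin+GGOH mice, 124, 94, 49, 96 and 93 counts in the Rosuvastatin mice, 16, 338, 95, 84 and 78 counts in the GGOH mice and 114, 92, 53, 58 and 65 counts in the vehicle mice. Rosuvastatin+GGOH mouse 3 stood far above the rest although its library was the smallest, and GGOH mouse 1 was the lowest, as they were for the mitochondrial share of counts. All 4 groups overlapped. Since the gene lies on the other strand, between mt-Nd5 and mt-Cytb, and the labels do not say whether strand was kept, its reads cannot be told apart from antisense reads, and mt-Nd5 and mt-Nd6 also overlap by 14 bases.

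Subunits of the 2 genomes that meet in the same complex were compared across mice in 4 pairs, with p-values adjusted over the 4 by Benjamini-Hochberg. In complex V, mt-Atp6 and Atp5b, the beta subunit of the head, were inversely related on the log2 CPM scale (Pearson's r = -0.714, permutation p = 0.00039, adjusted p = 0.00156; Spearman's rho = -0.600, adjusted p = 0.0262; n = 20). Without the 2 libraries farthest from the median of mt-Atp6, which were Rosuvastatin+GGOH mouse 3 and Rosuvastatin mouse 3, r was -0.718, and for deviations from group means it was -0.731. Without Rosuvastatin+GGOH mice 2 and 3 it was -0.643 (permutation adjusted p = 0.0140), and rho was then -0.496 (adjusted p = 0.0751). The relation was not particular to this pair. mt-Atp6 had r = 0.99 with the mean of the other mitochondrial genes, and Atp5b had -0.72 with the mean of the mitochondrial set. Ndufaf3 (-0.68) and Ndufv1 (-0.66), counted with complex I, were similar with that mean, while other nuclear members reached 0.43 (Atp5g2).

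Atp5b gives the values behind this. It stood at 9.46, 8.80, 9.29, 9.49 and 9.69 log2 CPM in the 5 Rosuvastatin+GGOH mice, 9.54, 9.18, 9.71, 9.12 and 9.34 log2 CPM in the Rosuvastatin mice, 9.72, 9.31, 9.52, 9.63 and 9.33 log2 CPM in the GGOH mice and 9.39, 9.34, 9.35, 9.17 and 9.49 log2 CPM in the vehicle mice. The lowest value was in Rosuvastatin+GGOH mouse 2, one of the mice with the most mt-Atp6, and the 3 highest were in the 3 mice with the least. The other pairs did not pass: r was -0.295 for mt-Nd1 with Ndufs1 (permutation adjusted p = 0.273), -0.425 for mt-Cytb with Uqcrfs1 (permutation adjusted p = 0.122) and 0.0662 for mt-Co1 with Cox4i1 (permutation adjusted p = 0.781). On the log2(TPM + 1) scale mt-Co1 with Cox4i1 turned round and passed, at r = -0.546 (permutation adjusted p = 0.0185), and mt-Cytb with Uqcrfs1 also passed, at r = -0.543 (permutation adjusted p = 0.0185). High mitochondrial shares lower the TPM of all other genes by construction.

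**Figure D4:**
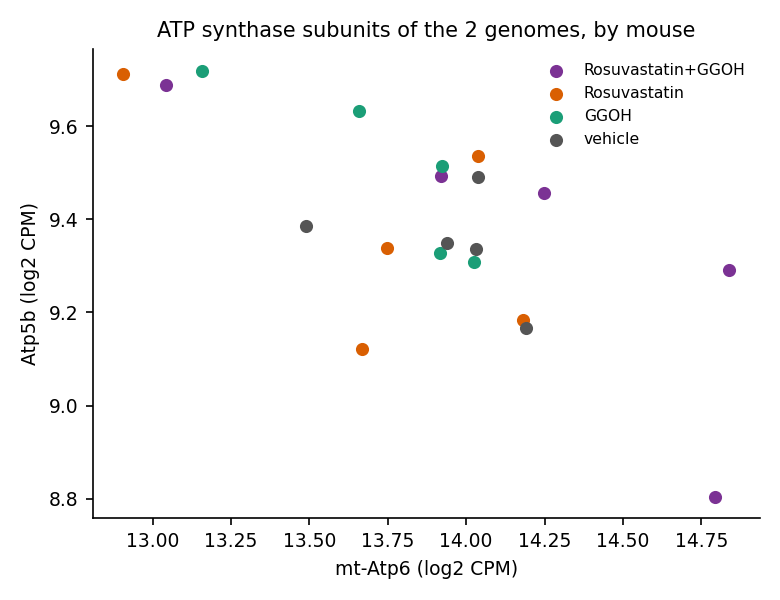
Log2 CPM of the mitochondrial subunit mt-Atp6 (horizontal) against the nuclear subunit Atp5b (vertical), with 1 point for each of the 20 mice coloured by group. Points fall from upper left to lower right (r = -0.714), with Rosuvastatin+GGOH mice 2 and 3 at the right end.

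Adding GGOH to the statin addresses whether GGOH changes the liver's response to Rosuvastatin, and none of the 101 members was called for Rosuvastatin+GGOH against Rosuvastatin by edgeR's quasi-likelihood test at an adjusted p of 0.05 over 12789 tested genes. Nor was any gene outside the sets (0.0% of tested genes). At an unadjusted p under 0.05, 2 mitochondrial genes were higher and none lower, and 0 nuclear genes passed in either direction, against 1.02% of all tested genes higher, 0.665% lower and 1.69% in either direction. All 13 mitochondrial genes had a fitted fold change above 0, with a median log2 value of 0.52, and the nuclear set had a median of -0.02, where the median of all genes was 0.01. DESeq2 called 0 members and 1 gene in all.

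mt-Nd6 had the smallest p-value, with a log2 fold change of 1.86 ± 0.59 (SE; edgeR unadjusted p = 0.00482), and the value was 0.80 without Rosuvastatin+GGOH mouse 3. mt-Cytb stood at 0.70 ± 0.33 (edgeR unadjusted p = 0.0470) and mt-Nd4l at 0.77 ± 0.39. For mt-Cytb the values were 16013, 29736, 31882, 13153 and 8703 TPM in Rosuvastatin+GGOH mice 1 to 5, against 14009.5, 14188, 9069, 10854 and 15619 TPM in Rosuvastatin mice 1 to 5. Rosuvastatin+GGOH mice 1 to 3 lay above all Rosuvastatin mice, mouse 4 among them and mouse 5 below them. Without Rosuvastatin+GGOH mice 2 and 3 the median of the mitochondrial set was 0.02. The nuclear genes with the smallest p-values were Ndufaf7 (0.18 ± 0.15), Cox7a1 (-0.29 ± 0.34) and Cox8a (0.14 ± 0.19).

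Rosuvastatin+GGOH against vehicle gave 0 members called by edgeR, of 0.0% of tested genes called, and DESeq2 called 0 members and 5 genes. At an unadjusted p under 0.05 only mt-Nd6 was higher, with a log2 fold change of 1.83 ± 0.59 (0.79 without Rosuvastatin+GGOH mouse 3), against 2.69% of all tested genes higher, 2.81% lower and 5.5% in either direction. The mitochondrial set had a median log2 fold change of 0.35, with 12 of 13 genes above 0, and the nuclear set had -0.19, with 71 of 88 below 0. With sample quality weights the mitochondrial median was -0.16, and without Rosuvastatin+GGOH mice 2 and 3 it was -0.12. The nuclear median was 0.018 on the log2(TPM + 1) scale. The nuclear genes with the smallest p-values, Ndufaf2, Uqcrh and Ndufb4c, stood at -0.54 ± 0.31, -0.68 ± 0.39 and -0.64 ± 0.40. Ndufb4c is the entry annotated as a processed pseudogene. Uqcrh had 1059.5, 916, 626, 996 and 1124 TPM in Rosuvastatin+GGOH mice 1 to 5, against 592, 1889, 931, 1187 and 1479.8 TPM in vehicle mice 1 to 5. Its vehicle values enclosed all those of the combination group.

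Rosuvastatin+GGOH against GGOH, the effect of the statin where GGOH is present, gave the widest separation of the 2 sets and again 0 members called by edgeR (0.0% of tested genes called; DESeq2 also called 0 genes). At an unadjusted p under 0.05, 5 mitochondrial genes were higher and none lower, and 1 nuclear gene was lower, against 8.95% of all tested genes higher, 5.04% lower and 14.0% in either direction. The 5 were mt-Nd6 (1.57 ± 0.58), mt-Nd5 (0.91 ± 0.44), mt-Nd4l (0.88 ± 0.39), mt-Nd4 (0.84 ± 0.38) and mt-Co1 (0.69 ± 0.31), each as a log2 fold change with SE. Without Rosuvastatin+GGOH mouse 3 the value of mt-Nd6 was 0.51. Medians were 0.63 for the mitochondrial set and -0.29 for the nuclear set, of which 83 of 88 were below 0. Only mt-Nd3 of the mitochondrial genes was below 0, at -0.30 ± 0.27.

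For mt-Co1 the values were 28444, 41119.7, 52764, 20968 and 16251 TPM in Rosuvastatin+GGOH mice 1 to 5, against 11846, 24317, 20460.3, 15218 and 24588 TPM in GGOH mice 1 to 5. Mice 1 to 3 of the combination group lay above all GGOH mice and mice 4 and 5 among them. Without Rosuvastatin+GGOH mice 2 and 3 the median of the set was 0.05. With offsets for GC content and length, fitted on genes outside the mitochondrial set, it was 1.22. The nuclear gene was Uqcrc2, a core protein of complex III, at -0.47 ± 0.21 (edgeR unadjusted p = 0.0359). It had 176, 116, 185, 193 and 194 TPM in Rosuvastatin+GGOH mice 1 to 5, against 199, 211, 230.0, 274 and 204 TPM in GGOH mice 1 to 5. All 5 combination mice were below all GGOH mice on this scale, while on the log2 CPM scale the groups overlapped. A higher mitochondrial share lowers the TPM of all other genes by construction. That share averaged 27.9% of TPM with Rosuvastatin+GGOH and 19.9% with GGOH. How many of all tested genes did not overlap in TPM was not counted. Ndufaf4 (-0.41 ± 0.22) and Ndufaf2 (-0.55 ± 0.31) followed.

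Rosuvastatin against vehicle gave 0 members called by edgeR (0.0% of tested genes called; DESeq2 called 0 members and 2 genes). No member reached an unadjusted p under 0.05, against 1.77% of tested genes higher, 1.92% lower and 3.69% in either direction. Both medians lay below 0, at -0.20 for the mitochondrial set, with 13 of 13 below 0, and -0.17 for the nuclear set, with 74 of 88 below 0. mt-Nd3 (-0.35 ± 0.27), mt-Nd4l (-0.30 ± 0.39) and mt-Cytb (-0.24 ± 0.33) had the smallest p-values of their set, and Ndufa5 (-0.49 ± 0.27), Ndufb3 (-0.52 ± 0.31) and Ndufaf2 (-0.51 ± 0.31) those of the nuclear set. Vehicle mouse 1 weighed on this: without it, 17 nuclear genes were lower at an unadjusted p under 0.05, where 1760 of 12912 tested genes passed in either direction. With sample quality weights 33 were lower, where 3062 of 12789 passed. No gene was called after adjustment in either case, and 472 of 12789 genes had passed with all libraries weighted alike. On the log2(TPM + 1) scale the nuclear median was 0.13, the opposite sign, while the median of all genes also shifted. The mitochondrial median was 0.0018 on log2(TPM + 0.1), where the median of all genes was 0.18. Its sign turned in 2 of 14 alternatives other than leaving out 1 library.

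GGOH against vehicle gave 0 members called by edgeR (0.0% of tested genes called; DESeq2 called 0 genes) and none at an unadjusted p under 0.05, against 1.26% of tested genes higher, 1.6% lower and 2.86% in either direction. The mitochondrial median was -0.19, with 11 of 13 below 0, and the nuclear median was 0.05, with 62 of 88 above 0. mt-Nd4l (-0.41 ± 0.39), mt-Nd4 (-0.36 ± 0.38) and mt-Nd2 (-0.33 ± 0.35) had the smallest p-values of the first set. In the second these were Cox5a (0.33 ± 0.21), Ndufa10 (0.21 ± 0.13) and Ndufaf7 (0.22 ± 0.15). Cox5a had 321, 263, 239, 260.4 and 215 TPM in GGOH mice 1 to 5, against 224, 149, 223, 189 and 199 TPM in vehicle mice 1 to 5, and the groups overlapped.

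The interaction, which asks whether the statin's effect differed with GGOH present, was called for 0 members by edgeR and by DESeq2 (0.0% of tested genes called), and 1 mitochondrial gene, mt-Nd4l, had an unadjusted p under 0.05 at 1.18 ± 0.55, against 2.1% of all genes higher, 0.79% lower and 2.89% in either direction. The mitochondrial median was 0.72 and the nuclear median -0.09. mt-Nd4 (1.06 ± 0.53) and mt-Cytb (0.91 ± 0.47) followed, and Ndufa10 (-0.26 ± 0.19), Cox5a (-0.32 ± 0.29) and Ndufs7 (-0.22 ± 0.25) had the smallest p-values of the nuclear set. In the test of any difference among the 4 groups, edgeR called 0 members and 0.00782% of tested genes, DESeq2 called 0 members and 6 genes, and mt-Nd6 was the 1 member with an unadjusted p under 0.05, against 5.28% of tested genes. No member had 5 mice of one group wholly above or below the 5 of another on the log2 CPM scale in any of the 5 pairwise comparisons, a count to be read against the following shares of all tested genes. They were 0.086% higher and 0.18% lower for Rosuvastatin+GGOH against Rosuvastatin, 0.258% higher and 0.5% lower for Rosuvastatin+GGOH against vehicle, and 0.93% higher and 1.33% lower for Rosuvastatin+GGOH against GGOH. They were 0.235% higher and 0.281% lower for Rosuvastatin against vehicle, and 0.195% higher and 0.235% lower for GGOH against vehicle.

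**Figure D5:**
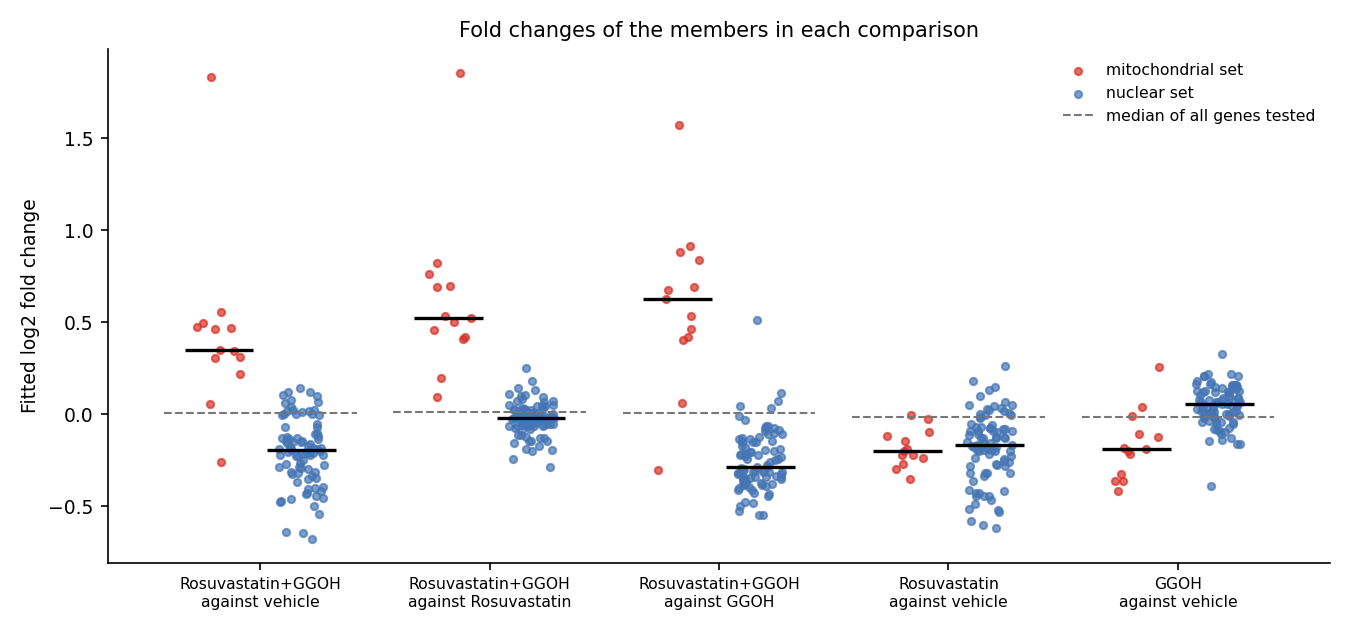
Fitted log2 fold changes of the 13 mitochondrial and 88 nuclear members in the 5 pairwise comparisons, with black bars for set medians and dashed lines for the median of all tested genes. The sets lie furthest apart for Rosuvastatin+GGOH against GGOH, with medians of 0.63 and -0.29, and the isolated top points in the first 3 comparisons are mt-Nd6.

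The statin was compared with its absence in 2 comparisons that share no library, Rosuvastatin+GGOH against GGOH and Rosuvastatin against vehicle. In both, 71 of 88 nuclear genes had a fold change below 0 and 2 had one above 0, so 83.0% had the same sign, against 66.0% of all tested genes. Of the mitochondrial genes 1 of 13 had the same sign. For GGOH against its absence, 35 of 88 nuclear genes (39.8%) and 2 of 13 mitochondrial genes had the same sign in both comparisons, against 41.4% of all genes. Since the nuclear genes move together between mice, these counts describe a shared movement and not 88 separate results.

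Genes that serve the chain without being part of it gave no call either. By edgeR, 0 members were called in any comparison among 78 mitochondrial ribosomal protein genes, 25 genes of mitochondrial transcription and mtDNA upkeep, 11 biogenesis regulators, 33 further assembly factors, 8 electron carriers and inputs, 13 genes of the TCA cycle and 7 of the mitochondrial unfolded protein response. For Rosuvastatin+GGOH against GGOH, median log2 fold changes were -0.24 for the ribosomal proteins, -0.19 for transcription and upkeep, -0.13 for the regulators, -0.18 for the assembly factors, -0.14 for the carriers, -0.18 for the TCA cycle and 0.13 for the unfolded protein response. At an unadjusted p under 0.05 in that comparison, beside 8.95% of all genes higher and 5.04% lower, 6 of 78 ribosomal protein genes, 3 of 13 TCA cycle genes, 1 of 33 assembly factors and 1 of 7 unfolded protein response genes were lower and none of these lists had a higher one. Of the transcription and upkeep genes 1 was higher and 3 were lower, of the carriers and inputs 1 was higher and 2 were lower, and of the regulators 2 were higher and 0 lower. The 2 regulators were Ppargc1b (log2 fold change 1.38 ± 0.48) and Pprc1 (1.31 ± 0.51), related coactivators of mitochondrial genes (edgeR adjusted p = 0.348 for both). Both also had an unadjusted p under 0.05 in the interaction, at 1.82 ± 0.66 and 1.61 ± 0.72 (edgeR adjusted p = 0.999 for both). Ppargc1b was at -1.49 ± 0.48 for GGOH against vehicle (edgeR adjusted p = 1.000). Ppargc1a, a further coactivator of this family, was at -0.61 ± 0.24 for Rosuvastatin against vehicle (edgeR adjusted p = 0.973). Gabpa, also a regulator, was at -0.33 ± 0.14 there and -0.34 ± 0.14 for Rosuvastatin+GGOH against vehicle (edgeR adjusted p = 0.973 and 0.817). Dld of the TCA cycle was at -0.57 ± 0.19 for Rosuvastatin+GGOH against GGOH (edgeR adjusted p = 0.348). Further list genes passed unadjusted and are not named. How far these values rest on single mice was not tested.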

How the data were processed

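Livers of 20 mice were sequenced from poly(A)-selected RNA, per the labels' protocols. Per the submitters' processing notes the tools were bcl2fastq 2.19, kallisto 0.44.0 and DESeq2 with the mouse build GRCm38; their settings and strandedness are not given in the sources used here. The authors deposited kallisto estimated counts per gene, here already whole numbers, and TPM values that they had scaled for length and depth. Each column was tied to its sample by the library name in the labels. Rows without a gene name held 0.00801 to 0.0157% of the estimated counts and stayed out of library sizes and tests.

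From these, genes passing filterByExpr (12789, all 101 members among them) were fitted with edgeR 4.0.16 in R 4.3.3: TMM factors, a group-means model over all 20 libraries, the quasi-likelihood test and Benjamini-Hochberg adjustment, with a call at an adjusted p under 0.05. Log2 CPM used a prior count of 1. The fit was checked on simulated data. Subunit pairs used 100000 permutations, two-sided (scipy 1.17.1), and shares of counts have Wilson 95% intervals. Alternatives used limma 3.58.1 on log2(TPM + 1) and log2(TPM + 0.1), DESeq2 1.42.0 and other settings given at the end. In each comparison the 3 genes of each set with the smallest p-value were named, besides those with an unadjusted p under 0.05, core subunits and the highest gene of each complex; others were singled out after their values were seen. The values of 1 core subunit are not reported here. Members and lists were chosen with earlier results of these data known. Transcript lengths and copies of mitochondrial genes come from GENCODE M21 (GRCm38), where 99 of 101 members matched, and promoters from RefSeq (GRCm38.p6). Copies were found by shared stretches of 31 bases.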

Additional observations from a re-analysis of the deposited data

Results flagged for a closer look

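In 5 of 116 groups of 5 mice examined, 1 mouse lay far from the other 4 by Dixon's criterion, and chance alone flags about 1 in 20 groups, here 5.8. Total estimated counts were 8548120 in Rosuvastatin+GGOH mouse 3 (the others 15927053 to 17864456), 11350411 in GGOH mouse 1 (the others 16379389 to 18373913) and 16776626 in vehicle mouse 1 (the others 12947681 to 13776285). For mt-Nd6, Rosuvastatin+GGOH mouse 3 had 190.0 TPM (the others 16.7 to 37.6 TPM) and GGOH mouse 2 had 48.0 TPM (the others 3.53 to 14.9 TPM). Rosuvastatin+GGOH mouse 3 and vehicle mouse 1 were also among the 3 lowest mice in the mean log2 CPM of the nuclear set, GGOH mouse 1 was next to the highest, and whether depth had a part in that was not tested.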

How the results depend on the processing

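No member was called after adjustment in any comparison by edgeR, DESeq2 or limma, nor under any of the alternatives that could be run, leaving out each library included. The median log2 fold change of the mitochondrial set for Rosuvastatin+GGOH against GGOH was 1.22 with offsets for GC content and length and 0.051 without Rosuvastatin+GGOH mice 2 and 3. The interaction median was 1.37 with those offsets. The cause was not tested. The offset curves were fitted without the mitochondrial genes and then applied to them. They took the longest transcript of each gene, whereas the length results above took the principal annotated one. Leaving out each library gave mitochondrial medians of 0.34 to 0.70 for Rosuvastatin+GGOH against Rosuvastatin, 0.19 to 0.55 for Rosuvastatin+GGOH against vehicle, 0.43 to 0.84 for Rosuvastatin+GGOH against GGOH, -0.32 to -0.04 for Rosuvastatin against vehicle, -0.26 to -0.07 for GGOH against vehicle and 0.52 to 0.88 for the interaction. The nuclear medians in that order of comparisons were -0.14 to 0.08, -0.38 to -0.05, -0.34 to -0.17, -0.31 to 0.00, -0.10 to 0.18 and -0.23 to 0.08. Instead of 5 mitochondrial genes with an unadjusted p under 0.05 for Rosuvastatin+GGOH against GGOH, the count was 0 without Rosuvastatin+GGOH mouse 3 (722 of all tested genes then passed, against 1788 with all mice), 1 without mouse 2 (823 genes) and 11 without mouse 5 (2304 genes), and 1 without GGOH mouse 1 (994 genes) or 4 (911 genes).

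Among nuclear medians only that for Rosuvastatin+GGOH against GGOH stayed below 0 in every alternative. Others turned sign, to 0.13 for Rosuvastatin against vehicle and 0.018 for Rosuvastatin+GGOH against vehicle on log2(TPM + 1), -0.23 for GGOH against vehicle and 0.21 for the interaction with sample quality weights, and 0.14 for Rosuvastatin+GGOH against Rosuvastatin without Rosuvastatin+GGOH mice 2 and 3. The mitochondrial median turned sign as well, to 0.0018 for Rosuvastatin against vehicle on log2(TPM + 0.1). With sample quality weights it was -0.16 for Rosuvastatin+GGOH against vehicle. Signs also turned for a few uncalled genes. mt-Nd3, Rosuvastatin against vehicle, was at 0.0018 on both TPM scales and 0.072 with GC and length offsets. Without Rosuvastatin+GGOH mice 2 and 3, mt-Nd4l was at -0.053 against Rosuvastatin and mt-Cytb at -0.12 against vehicle, and with sample quality weights mt-Cytb was at -0.026 there and Ndufs7 at 0.011 in the interaction. On the log2(TPM + 1) scale the median of all genes for Rosuvastatin against vehicle shifted to 0.11. As a share of TPM the mitochondrial genes took 27.9% with Rosuvastatin+GGOH, 21.2% with Rosuvastatin, 19.9% with GGOH and 20.9% with vehicle. Leaving out 1 mouse gave mean shares of counts of 16.9 to 21.9%, 13.3 to 15.3%, 12 to 14.1% and 13.1 to 14.1% in these groups. The table holds no mitochondrial rRNA or tRNA among the analysed names, so restricting the set to protein-coding genes changed nothing. On log2(TPM + 1), r was -0.543 for mt-Cytb with Uqcrfs1 and -0.546 for mt-Co1 with Cox4i1, and both then passed (permutation adjusted p = 0.0185 for each).

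The replicate numbers did not pair the mice: correlations of same-numbered mice ran from -0.443 to 0.474 and 10 of 30 exceeded 0.1. With the replicate number as a block, 0 members were called, and the medians for Rosuvastatin+GGOH against GGOH were 0.57 for the mitochondrial set and -0.32 for the nuclear set.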
